A study of Mus musculus with 16 samples.

Results

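The Zfhx family consists of 3 very large transcription factors, Zfhx2, Zfhx3 and Zfhx4, each of which carries many zinc fingers together with several homeodomains in 1 protein. Zfhx3, also called Atbf1, was first described as a protein that binds an AT-rich element of the alpha-fetoprotein gene, and it regulates neuronal differentiation and the circadian clock of the mouse brain. Zfhx4 is required for palate development in the mouse, and in human glioblastoma cells its protein interacts with Chd4, the remodelling ATPase of the NuRD chromatin complex. Zfhx2 is expressed in the mouse brain and in sensory neurons. The family was examined in mouse embryos with and without a gene trap in Cecr2, a bromodomain gene whose protein partners ISWI chromatin remodellers and whose loss can leave the cranial neural tube open.

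The members were all probe sets of the array whose platform annotation named 1 of the 3 genes and no other. They numbered 9 of 45037 probe sets, and their 3 genes were 3 of the 18193 genes that the array measured. Zfhx4 on chromosome 3 had 2 probe sets, Zfhx3 on chromosome 8 had 6, and Zfhx2 on chromosome 14 had 1. The family was chosen because Zfhx4 was lower in the mutants of each strain. The genotype differences of Zfhx4 are therefore given as a description, with no test, while Zfhx2 and Zfhx3 were not chosen by their values. Probe sets of 1 gene were read from the same embryos and are not replicates of each other.

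RNA of 16 whole female embryos, 1 embryo per array, was hybridised to Affymetrix mouse arrays. The 4 groups of 4 embryos were homozygous Cecr2Gt45Bic mutants on BALB/cCrl, wild types on BALB/cCrl, homozygous Cecr2Gt45Bic mutants on FVB/N and wild types on FVB/N. All embryos had 11 to 14 somites and had been taken out of their extraembryonic membranes before the cranial neural tube closed. The mutant lines were congenic. The BALB/cCrl mutants had heterozygous parents. The parents of the FVB/N mutants were homozygous, and there genotype and cross cannot be told apart. Values are log2 expression levels, differences are log2 differences with the standard error (SE) of a limma fit to all 16 arrays, and group means carry the standard deviation (SD). A probe set was called where its p adjusted over all 45037 probe sets was under 0.05.

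The labels were checked on the trapped gene. Probe set 1457039_at of Cecr2, on chromosome 6, measured 5.90 to 6.04 in BALB/cCrl mutants, against 8.07 to 8.64 in their wild types, and 6.15 to 6.37 in FVB/N mutants, against 8.14 to 8.51 in theirs. Array medians lay between 6.35 and 6.42, and arrays of a group correlated at 0.995 to 0.998. FVB/N mutants 3 and 4 stood apart from the other arrays on the second principal component, at -24.0 and -24.7, where the other 14 embryos lay between -9.65 and 13.9. Calls that involve the FVB/N mutants are therefore also given without these 2 embryos. Whole embryos were measured, so fewer cells of a type and less RNA per cell cannot be told apart.

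Zfhx4 was lower in the mutants than in the wild types of both strains, by about the same amount. Its brighter probe set, 1437556_at, measured 8.65, 8.38, 8.49 and 8.42 in BALB/cCrl mutants, against 8.85, 8.88, 8.97 and 8.91 in BALB/cCrl wild types. All 4 mutants lay below all 4 wild types. The group means were 8.49 ± 0.12 and 8.90 ± 0.05 (SD, n = 4 each), a difference of -0.42 (SE 0.0702), or 1.33-fold. In FVB/N the same probe set measured 8.94, 8.81, 8.72 and 8.67 in mutants, against 9.07, 9.17, 9.12 and 9.19 in wild types. Again the groups did not overlap, with means of 8.78 ± 0.12 and 9.14 ± 0.05 (SD, n = 4 each) and a difference of -0.35 (SE 0.0702), or 1.28-fold. The BALB/cCrl difference minus the FVB/N difference was -0.06 (SE 0.0993). Without FVB/N mutants 3 and 4, the pair of FVB/N mutants with the lowest Zfhx4 level, the difference in FVB/N was -0.26.

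The second Zfhx4 probe set, 1421433_at, lay on the same side in both strains, by less and with more spread. It measured 8.02, 7.54, 7.85 and 7.55 in BALB/cCrl mutants, against 7.97, 8.14, 7.90 and 7.99 in wild types. It measured 8.16, 8.03, 7.74 and 7.74 in FVB/N mutants, against 8.05, 8.14, 8.17 and 8.21 in wild types. In each strain 3 of the 4 mutants lay below all wild types, and mutant 1 lay among or near the highest values. The differences were -0.26 in BALB/cCrl and -0.23 in FVB/N (SE 0.109 each). Without FVB/N mutants 3 and 4 the FVB/N difference was -0.05, so at this probe set it came mostly from these 2 embryos. Both probe sets put the 4 groups in the same order of level, wild type FVB/N highest, then wild type BALB/cCrl, mutant FVB/N and mutant BALB/cCrl. At 1437556_at only the neighbours mutant FVB/N and wild type BALB/cCrl overlapped in this order. The 2 probe sets rose and fell together over the embryos, with r = 0.85 over 16 arrays and 0.82 after the group means were subtracted.

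**Figure D1:**
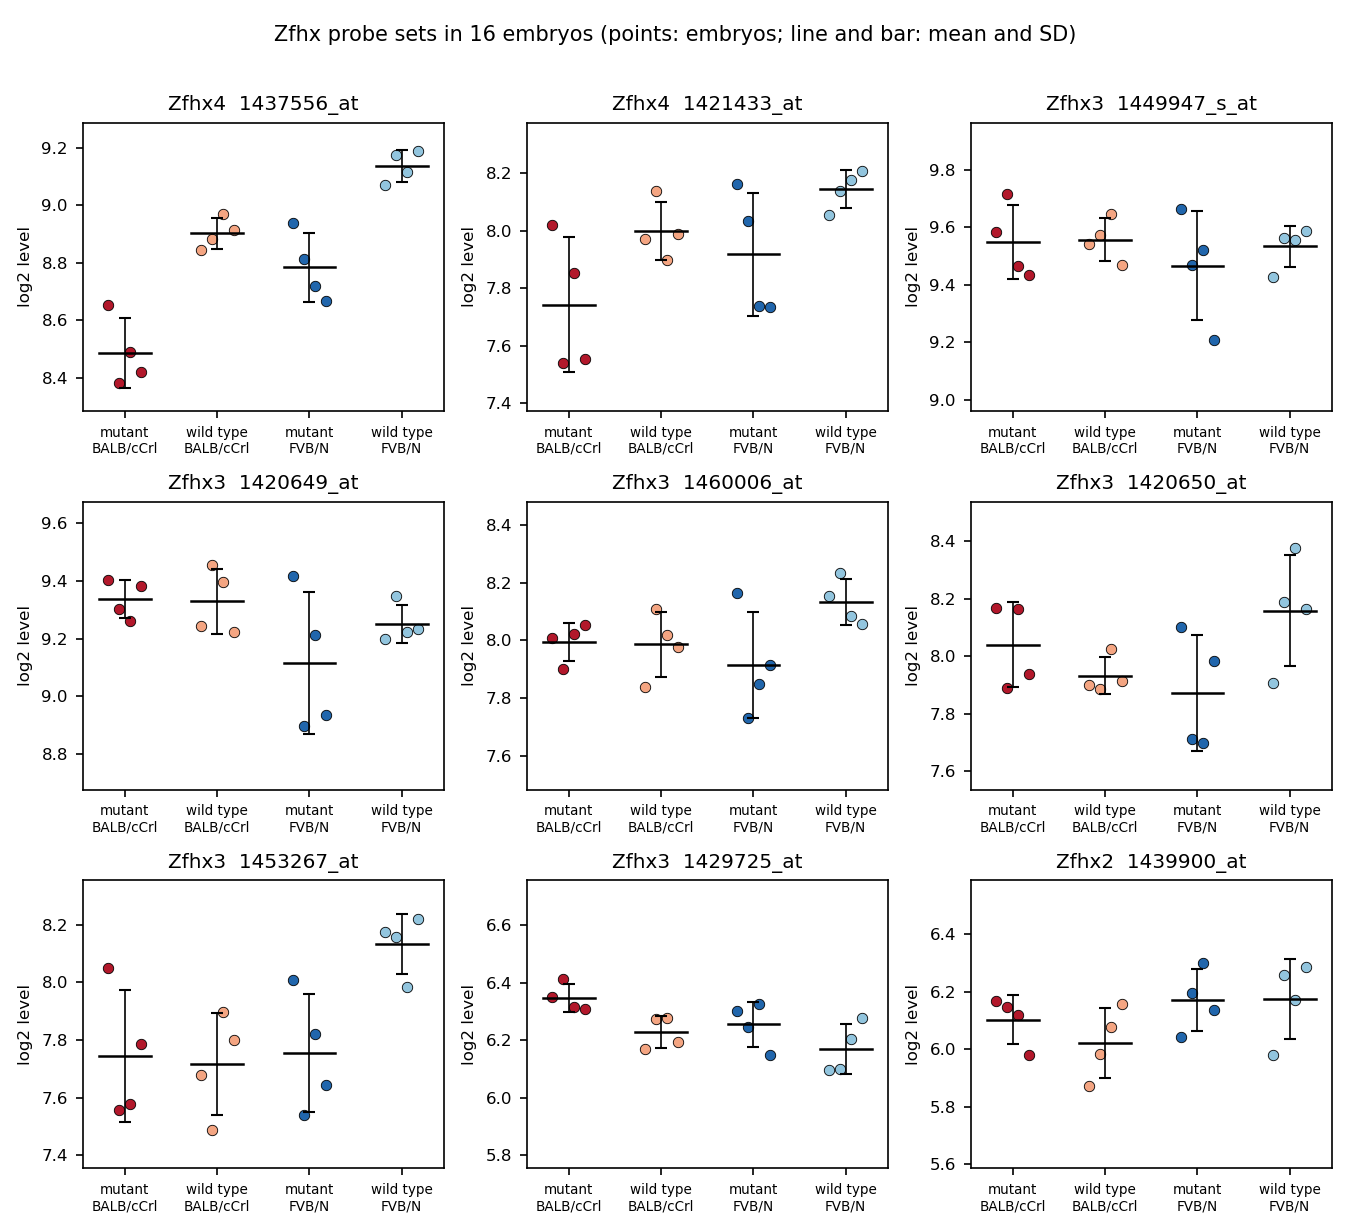
Log2 level of each of the 9 Zfhx probe sets (vertical axes, all spanning 1 log2 unit) in the 16 embryos, by group (horizontal axes); points are embryos, lines means and bars SD. At Zfhx4 1437556_at the mutants of each strain lie below all their wild types, while the probe sets of Zfhx3 and Zfhx2 overlap between genotypes except Zfhx3 1429725_at in BALB/cCrl.

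The value that chose Zfhx4 in BALB/cCrl sat close to the threshold, and that in FVB/N lay further inside it. Over all probe sets 9 were called in BALB/cCrl (0.0200%) and 268 in FVB/N (0.595%). Both counts moved with single embryos. In BALB/cCrl 115 were called without BALB/cCrl mutant 4 and 18 without BALB/cCrl mutant 2. In FVB/N between 55 (without FVB/N wild type 2) and 471 (without BALB/cCrl mutant 4) were called, and 42 without FVB/N mutants 3 and 4 together. By its adjusted p Zfhx4 1437556_at was the last of the called probe sets that were lower in BALB/cCrl mutants, at 0.050, behind the head mesenchyme gene Alx1 at -0.83. The next one, outside the threshold, was Fam241a at -0.82 with an adjusted p of 0.0598. In FVB/N its nearest neighbours by p were Nefh, a neurofilament gene, at -0.51 and Gap43, a growth cone gene, at -0.34. Lower in the mutants and called in both strains were 6 probe sets, which belong to Cecr2, the casein gene Csn3, Alx1, Zfp9 and Zfhx4. Mutants lay below all wild types at 3.24% of probe sets in BALB/cCrl and 3.15% in FVB/N, and at 117 probe sets in both.

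Cell type markers were compared in the same embryos. The mean level of 14 head mesenchyme and palate factors was 8.08 to 8.34 in BALB/cCrl mutants, against 8.34 to 8.35 in wild types, and 8.24 to 8.38 in FVB/N mutants, against 8.45 to 8.51 in wild types. Neither pair of groups overlapped, though in BALB/cCrl the highest mutant came up to the lowest wild type. There Alx1 at -0.83 and Prrx1 at -0.46 lay farthest below, while the median of the 14 genes was -0.07. Of the 14 genes, 10 lay below 0 in BALB/cCrl and 11 in FVB/N, and 1, Alx1, was called in each strain. The mean level of 17 early neuron genes was 6.20 to 6.42 in BALB/cCrl mutants, against 6.36 to 6.44 in wild types, and 6.25 to 6.34 in FVB/N mutants, against 6.40 to 6.55 in wild types, so these groups overlapped in BALB/cCrl. FVB/N mutants 1 and 2 alone spanned 8.24 to 8.38 for the first list and 6.25 to 6.34 for the second. Of these 17, 11 lay below 0 in BALB/cCrl and 13 in FVB/N, and none was called. Such a separation in FVB/N was not particular to these cell types. The mean level of 14 NuRD complex genes was 10.417 to 10.498 in FVB/N mutants, against 10.501 to 10.577 in wild types. That of 8 partners and targets of Zfhx3 was 7.80 to 8.11, against 8.12 to 8.22. The 7 lists of other cell types, among them neural progenitors, muscle, endothelium, blood and visceral endoderm, gave no call in either genotype contrast. All 7 measured visceral endoderm and yolk sac genes lay below 0 in FVB/N mutants with a median of -0.38, and 6 did so in BALB/cCrl mutants with a median of -0.13. The FVB/N count was 4 without FVB/N mutants 3 and 4, with a median of -0.04. All 8 endothelial genes lay below 0 in BALB/cCrl and 6 in FVB/N, and 7 of 8 neural progenitor genes in each strain. The 8 cardiac muscle genes all lay above 0 in FVB/N (median 0.14), while 7 of them lay below 0 in BALB/cCrl (median -0.12). Of 7 measured primitive erythroid genes, 7 lay below 0 in FVB/N and 2 in BALB/cCrl. The FVB/N count of these was 3 without FVB/N mutants 3 and 4. As a sign of RNA quality, the 3' minus the 5' Gapdh level in the gcRMA tables was 0.00582 to 0.0278 in BALB/cCrl mutants, against -0.0402 to 0.00238 in wild types, and -0.0422 to 0.0208 in FVB/N mutants, against -0.0951 to -0.0415 in wild types. The same measure of Actb was 0.521 to 0.644 in BALB/cCrl mutants, against 0.578 to 0.711 in wild types, and 0.561 to 0.678 in FVB/N mutants, against 0.494 to 0.639 in wild types. The Gapdh values of mutants and wild types did not overlap in BALB/cCrl and overlapped slightly in FVB/N, whereas those of Actb overlapped in both strains. The part of these cell types and of RNA quality in the Zfhx4 difference was not tested.

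Between the strains, the mean levels of Zfhx4 were lower in BALB/cCrl than in FVB/N, and 1 of its probe sets was called, in mutants alone. These contrasts did not choose the family and were tested. In the mutants, 1437556_at was 1.23-fold lower in BALB/cCrl, a difference of -0.30 (SE 0.0702, adjusted p = 0.00799 by limma), and the 2 groups did not overlap. The call was lost in a fit to the 8 mutant arrays alone (adjusted p = 0.0595), and without FVB/N mutants 3 and 4 the difference was -0.39 (adjusted p = 0.00365). In the wild types it was 1.18-fold lower in BALB/cCrl at -0.23, again without overlap, but it missed the threshold (SE 0.0702, adjusted p = 0.051). There it passed with array weights, with centred arrays, in a fit to the 8 wild type arrays and with dim probe sets left out (adjusted p 0.0124 to 0.0422). The second probe set differed by -0.18 in mutants (adjusted p = 0.382) and -0.14 in wild types (adjusted p = 0.534), with overlap. Calls were common in these contrasts, at 10.8% of probe sets in mutants and 6.74% in wild types, and BALB/cCrl lay below all FVB/N embryos without overlap at 7.58% and 8.23%. Sequence differences between the strains under the probes were not tested.

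Zfhx3, the most fully covered member, gave no called genotype difference in either strain. In BALB/cCrl its 6 probe sets differed by -0.01 to 0.12 between mutants and wild types (adjusted p 0.637 to 0.989), and 0 of them had an unadjusted p under 0.05, against 9.54% of all probe sets. Its dimmest probe set, 1429725_at, measured 6.35, 6.41, 6.31 and 6.31 in BALB/cCrl mutants, against 6.17, 6.27, 6.28 and 6.19 in wild types. The mutants lay above all wild types there, by 0.12 (SE 0.0732, adjusted p = 0.637). Over all probe sets the mutants of this strain lay below all wild types at 3.24%. The share that lay above is not given here, so no weight is put on this separation.

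In FVB/N 5 of the 6 Zfhx3 probe sets lay below 0, against 46.4% of all probe sets, and none was called. The probe set 1453267_at measured 8.01, 7.54, 7.82 and 7.65 in FVB/N mutants, against 8.18, 8.16, 7.98 and 8.22 in wild types. Of the 4 mutants 3 lay below all wild types, and the difference of -0.38 did not pass (SE 0.116, adjusted p = 0.157). The probe sets 1420650_at and 1460006_at differed by -0.29 (adjusted p = 0.254) and -0.22 (adjusted p = 0.29). These 3 had an unadjusted p under 0.05, against 12.1% of all probe sets. The median of the 6 was -0.18, that of all probe sets 0.01, and 1429725_at lay the other way at 0.09. The 6 probe sets thus disagreed on size and sign. The difference at 1453267_at without FVB/N mutants 3 and 4 was -0.36 (adjusted p = 0.518). That at 1449947_s_at turned from -0.07 to 0.03 without these 2 embryos.

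Whether the genotype difference of Zfhx3 and Zfhx2 changed with the strain was tested as an interaction, the BALB/cCrl difference minus the FVB/N difference. It lay above 0 at all 6 Zfhx3 probe sets, from 0.03 to 0.41, while 52.1% of all probe sets lay below 0. None was called, against 34 of all probe sets (0.0755%; 14 without BALB/cCrl mutant 1, and several times more than 34 without BALB/cCrl wild type 3). Against 7.92% of all probe sets, 2 of the 6 had an unadjusted p under 0.05. They were 1420650_at at 0.39 (SE 0.147, adjusted p = 0.478) and 1453267_at at 0.41 (SE 0.165, adjusted p = 0.531).

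Of the 6 Zfhx3 probe sets, 1 was called between wild types of the strains, 1453267_at, where 6.74% of all probe sets were called. BALB/cCrl wild types lay below all FVB/N wild types at 8.23% of probe sets. Sequence differences between the strains under the probes of 1453267_at were not tested. At 1453267_at the values were 7.68, 7.49, 7.90 and 7.80 in BALB/cCrl wild types, against 8.18, 8.16, 7.98 and 8.22 in FVB/N wild types, with no overlap. BALB/cCrl was 1.34-fold lower, at -0.42 (SE 0.116, adjusted p = 0.0333). In the mutants the same probe set differed by -0.01 (adjusted p = 0.978). The other 5 differed by -0.23 to 0.08 between wild types and were not called. In the mutants all 6 lay between -0.01 and 0.22 with none called, and 1420649_at came nearest (0.22, SE 0.0914, adjusted p = 0.143). Without FVB/N mutant 1 it was called, at 0.32 (adjusted p = 0.0139). The wild type call at 1453267_at was lost without BALB/cCrl wild type 1 or 2, or FVB/N wild type 1, 2 or 4 (adjusted p up to 0.122), while the difference stayed between -0.48 and -0.34 with any 1 embryo left out.

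Zfhx2 gave no called difference in any contrast. Its probe set 1439900_at measured 6.17, 6.15, 6.12 and 5.98 in BALB/cCrl mutants, against 5.87, 5.98, 6.08 and 6.16 in wild types. It measured 6.04, 6.20, 6.30 and 6.14 in FVB/N mutants, against 5.98, 6.26, 6.17 and 6.29 in wild types. All groups overlapped. Mutants differed by 0.08 in BALB/cCrl (SE 0.0897, adjusted p = 0.82) and by less than 0.01 in FVB/N (adjusted p = 0.991). BALB/cCrl minus FVB/N was -0.07 in mutants (adjusted p = 0.744) and -0.15 in wild types (adjusted p = 0.40). The antisense transcript Zfhx2os within the Zfhx2 locus, no member of the family, was dim at 4.00 to 4.73 over all embryos and was called in no contrast.

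**Figure D2:**
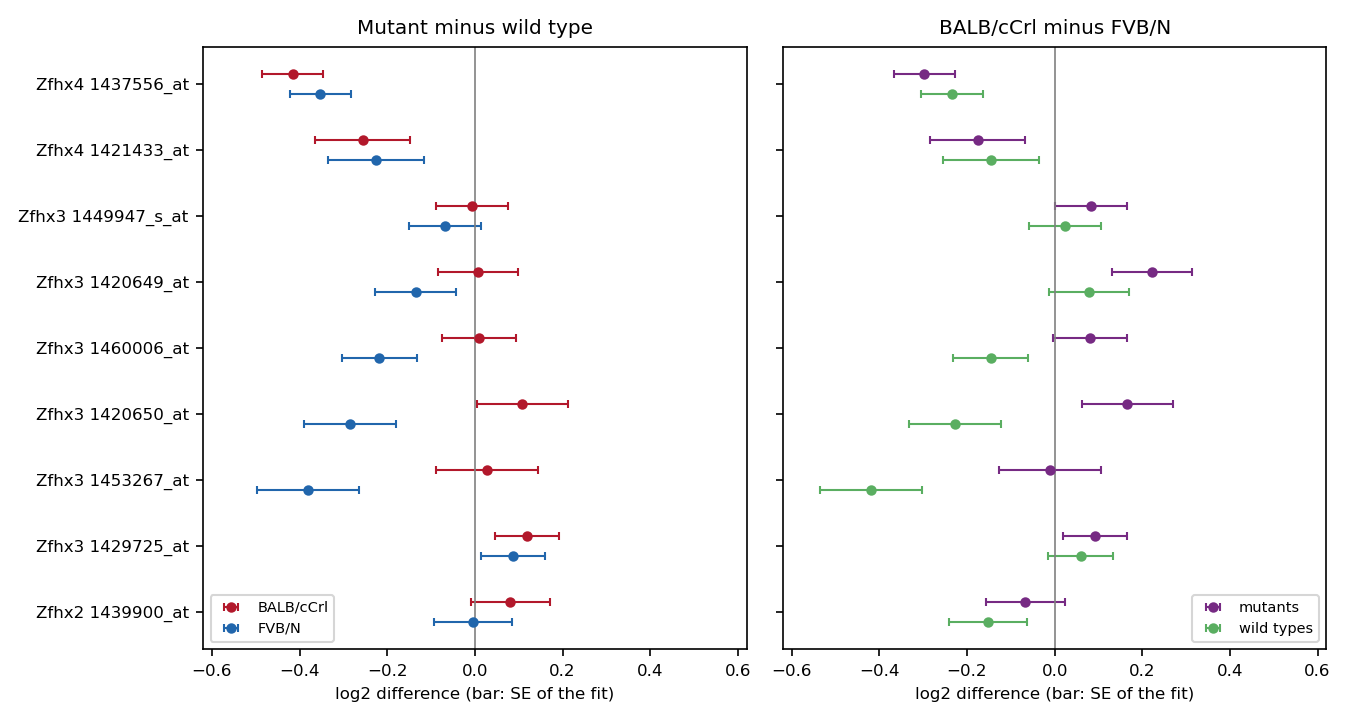
Log2 differences of the 9 Zfhx probe sets with the SE of the fit, as mutant minus wild type in each strain (left) and between the strains, BALB/cCrl minus FVB/N, for mutants and wild types (right). Both Zfhx4 probe sets lie left of 0 in all 4 contrasts, and Zfhx3 1453267_at lies at -0.38 in FVB/N mutants against wild types but at 0.03 in BALB/cCrl.

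The genes beside the family members on their chromosomes were called in neither genotype contrast. Of 15 measured neighbours, Zfhx2os included, the differences ran from -0.16 to 0.14 in BALB/cCrl and from -0.10 to 0.21 in FVB/N. Pex2, a peroxisome biogenesis gene next to Zfhx4, differed by -0.05 and -0.03, and Hnf4g on its other side by -0.14 and 0.04. Between mutants of the 2 strains 3 of the 15 neighbours were called, all lower in BALB/cCrl, where 11.4% of all genes were called. These were Ngdn (-0.37, adjusted p = 1.07e-04) and Myh7 (-0.44, adjusted p = 0.0318) beside Zfhx2, and the proteasome gene Psmd7 (-0.14, adjusted p = 0.0248) beside Zfhx3. Without FVB/N mutants 3 and 4, Ngdn alone of these was called, while Myh7 stood at -0.45 (adjusted p = 0.106) and Psmd7 at -0.14 (adjusted p = 0.0621). Psmd7 was also called between wild types (-0.14, adjusted p = 0.0377), 1 of 15 where 6.90% of all genes were called.

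Related genes were taken from lists chosen with earlier results of these data known, each gene represented by its brightest probe set. Over all genes 0.0330% were called lower and 0.0110% higher in BALB/cCrl mutants, and 0.390% lower and 0.121% higher in FVB/N mutants. The median over all genes was -0.01 in BALB/cCrl and 0.00 in FVB/N, with 52.8% and 49.3% of genes below 0. Between the strains, 11.4% of all genes were called in mutants and 6.90% in wild types.

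Of 10 measured zinc finger homeobox genes outside the family, 8 lay below 0 in BALB/cCrl mutants with a median of -0.03, and 7 in FVB/N with a median of -0.16. In FVB/N 1 was called, Tshz1, a teashirt gene, which measured 9.59 to 10.01 in mutants, against 10.23 to 10.55 in wild types. It was lower by -0.59 (adjusted p = 0.00586), and in BALB/cCrl its difference was -0.37 (adjusted p = 0.272). Its relative Tshz3 differed by -0.39 in BALB/cCrl (adjusted p = 0.231) and -0.41 in FVB/N (adjusted p = 0.0503). Zeb2, a repressor active in neural crest, differed between the strains instead, at 1.40 higher in BALB/cCrl mutants (adjusted p = 1.61e-05) and 0.76 higher in BALB/cCrl wild types (adjusted p = 0.0092).

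Of 14 measured head mesenchyme and palate factors, 10 lay below 0 in BALB/cCrl mutants and 11 in FVB/N mutants, with a median of -0.07 in each. Alx1 was called in both. It measured 6.57 to 6.97 in BALB/cCrl mutants, against 7.51 to 7.80 in wild types (-0.83, adjusted p = 6.14e-04), and 6.94 to 7.18 in FVB/N mutants, against 7.45 to 7.82 in wild types (-0.65, adjusted p = 0.00497). Prrx1, a limb and craniofacial mesenchyme homeobox gene, was lower in BALB/cCrl than in FVB/N by -0.54 in mutants (adjusted p = 0.0038) and by -0.54 in wild types (adjusted p = 0.00492). Twist1 was lower in BALB/cCrl as well, by -0.30 in mutants (adjusted p = 0.0441) and -0.39 in wild types (adjusted p = 0.0141). Msx2 was called lower in mutants (-0.27, adjusted p = 0.0186) and lay at -0.12 in wild types (adjusted p = 0.412). Tfap2b was called lower in wild types (-0.35, adjusted p = 0.0232) and lay at -0.22 in mutants (adjusted p = 0.164). Neither had a called interaction (adjusted p 0.774 and 0.859). Without FVB/N mutants 3 and 4, Prrx1 was called between mutants at -0.68 (adjusted p = 0.00327), and Twist1 at -0.30 (adjusted p = 0.113) and Msx2 at -0.25 (adjusted p = 0.0781) were not. Alx1 gained a call there, at -0.40 (adjusted p = 0.0473), against -0.28 (adjusted p = 0.0858) with all arrays.

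The NuRD complex, which holds the human partner of Zfhx4, gave no call among its 14 genes in either genotype contrast, with medians of -0.01 in BALB/cCrl and -0.05 in FVB/N. The smallest p in BALB/cCrl belonged to Chd5 at 0.22 (adjusted p = 0.48) and the deacetylase Hdac1 at -0.11 (adjusted p = 0.451). In FVB/N it belonged to Gatad2b at -0.52 (adjusted p = 0.0642) and Chd3 at -0.31 (adjusted p = 0.178). Between mutants of the strains, 5 were called higher in BALB/cCrl, Gatad2b (0.54, adjusted p = 0.00739), Gatad2a, Chd4, Chd3 and Mta1, and Hdac2 was called lower (-0.14, adjusted p = 0.0333). Over all genes 11.4% were called in this contrast. Hdac2 was still called without FVB/N mutants 3 and 4, at -0.17 (adjusted p = 0.0213), and none was called higher, with Gatad2b at 0.38 (adjusted p = 0.0781). None was called between wild types. The 8 partners and targets of Zfhx3 gave no call, with medians of -0.03 and -0.15. Myb lay lowest by p in both strains, at -0.30 in BALB/cCrl (adjusted p = 0.392) and -0.26 in FVB/N (adjusted p = 0.297), followed by Pias3 in BALB/cCrl (0.17, adjusted p = 0.568) and Pdgfrb in FVB/N (-0.24, adjusted p = 0.459). Over the 4 lists, the 2 genes called in FVB/N, Tshz1 and Alx1, became 0 without FVB/N mutants 3 and 4. The differences stayed near their size, at -0.57 for Tshz1 (adjusted p = 0.0577) and -0.54 for Alx1 (adjusted p = 0.14), with 2 mutants in place of 4.

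**Figure D3:**
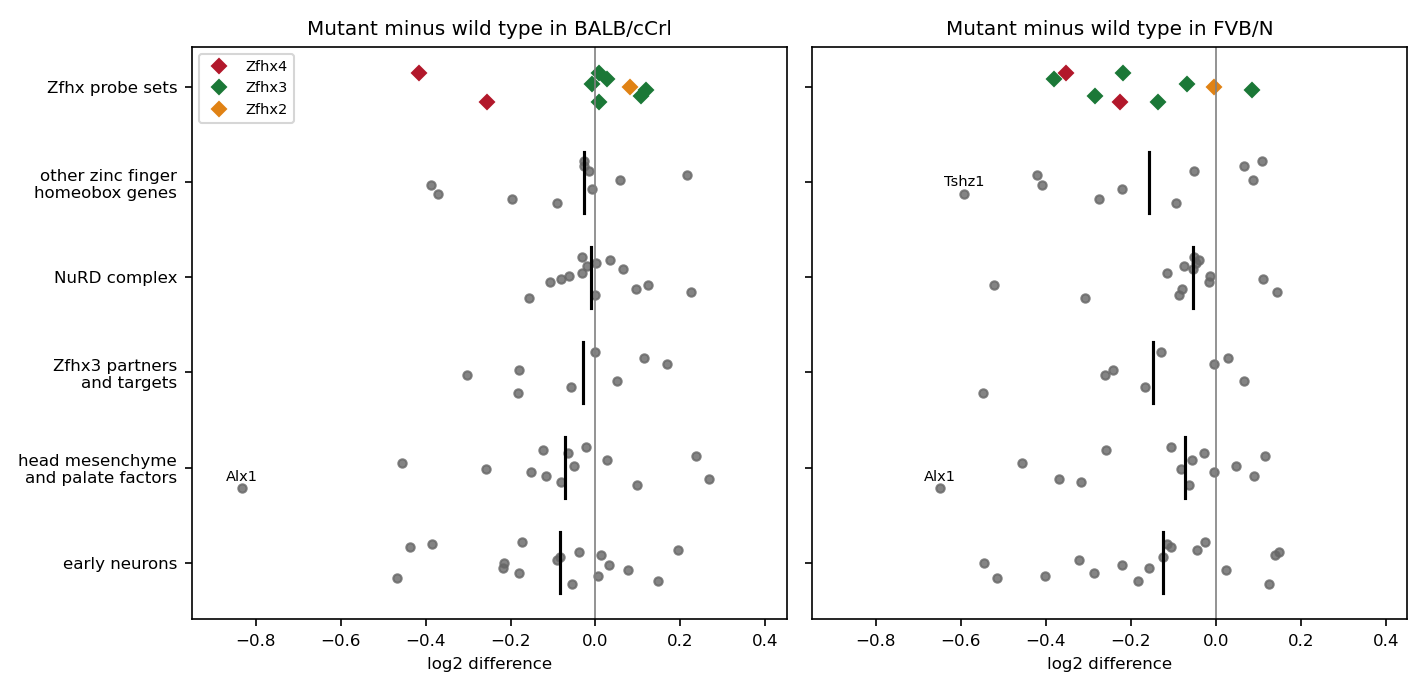
Log2 differences, mutant minus wild type, of the 9 Zfhx probe sets (diamonds) and of the genes of 4 related lists and of early neuron genes (circles; bars mark list medians) in BALB/cCrl (left) and FVB/N (right). Called genes are named: Alx1 in both strains and Tshz1 in FVB/N.

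The genes with the level most like that of Zfhx4 1437556_at were sought among 14475 genes by Pearson's r. Over the 16 arrays these were Prrx1 at 0.93, Prex2 at 0.91, Mecom, a zinc finger transcription factor, at 0.90 and Mrm2 at 0.89. The 16 points fall into groups by strain and genotype, which share these correlations. Without the 2 embryos farthest from the Zfhx4 median, r was 0.91 for Prrx1, 0.87 for Prex2, 0.85 for Mecom and 0.81 for Mrm2. Prrx1 measured 7.73 to 8.49 in BALB/cCrl mutants, 8.56 to 8.68 in BALB/cCrl wild types, 8.47 to 8.90 in FVB/N mutants and 9.09 to 9.23 in FVB/N wild types. After strain means were subtracted, the closest were Alx1 at 0.93, Prrx1 at 0.92, Cecr2 at 0.91 and Csn3 at 0.91. At each of these genes the mutants of each strain lay below all their wild types. Of them, Prrx1 was called in neither genotype contrast (adjusted p = 0.272 in BALB/cCrl and 0.0773 in FVB/N by limma). Within groups the closest were 6330403K07Rik at 0.87, Man1c1 at 0.85, Rgl1 at 0.84 and Zeb1 at 0.84. The genes most like the brightest Zfhx3 probe set were Kat6a at 0.87, Pwwp2a at 0.86, and Ptch1 and Zbtb16 at 0.85. With Spearman's rho, 3 of the 4 named genes remained among the closest 4 over the 16 arrays, 1 (Prrx1) after strain means were subtracted, 1 (Rgl1) within groups and 2 (Kat6a and Pwwp2a) for Zfhx3. By rho Alx1, Cecr2 and Csn3 ranked 40, 66 and 76 after strain means were subtracted. The correlation of Zfhx4 1437556_at with the Zfhx3 probe sets ran from -0.62 (1429725_at) to 0.65 (1453267_at) over the 16 arrays.

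**Figure D4:**
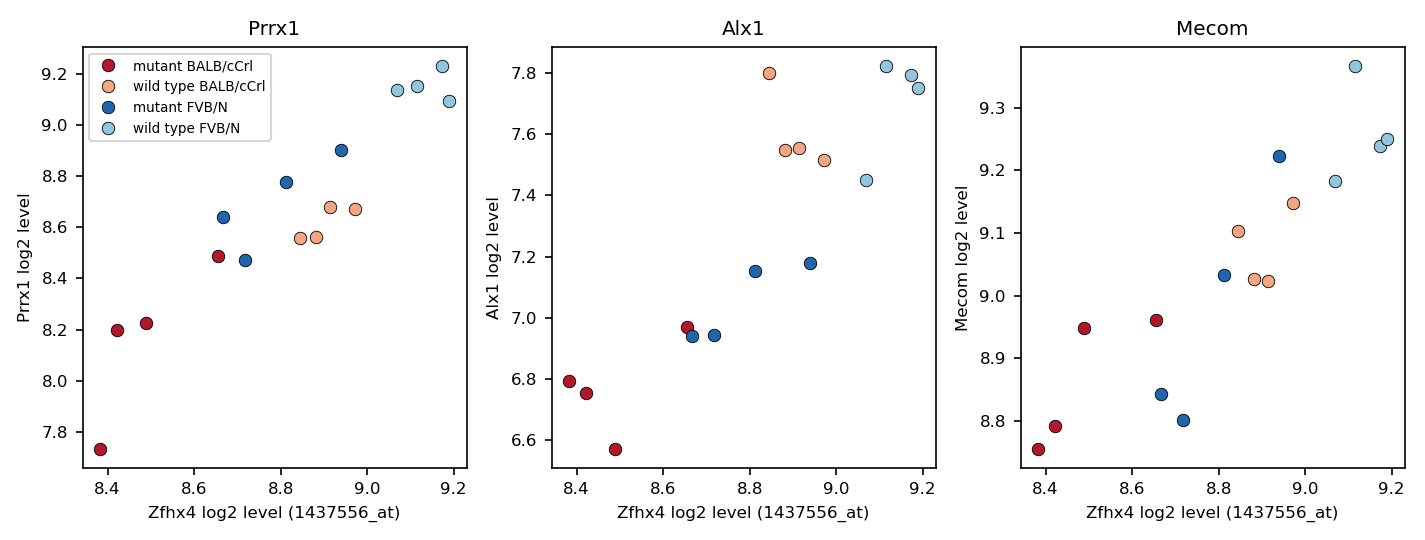
Log2 levels of Prrx1, Alx1 and Mecom (vertical axes) against Zfhx4 1437556_at (horizontal axes) in the 16 embryos, coloured by group. The mutants of each strain lie below their wild types on the axes of Zfhx4, Prrx1 and Alx1, while 1 FVB/N mutant reaches the wild types at Mecom; r was 0.93 for Prrx1 over all 16.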

How the data were processed

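The log2 expression values analysed were deposited by the authors, normalised over all 16 arrays together. RMA and GCRMA were used, per the submitters' processing notes, which give neither versions nor the role of either. Deposited gcRMA values for 3 pairs of groups, also log2, served as an alternative. The arrays were fitted in limma 3.58.1 (R 4.3.3) with a mean for each group, an intensity trend and no covariates. P-values were adjusted by Benjamini and Hochberg over 45037 probe sets, of which 34945 carried 1 gene symbol, and 18193 genes were represented by their brightest probe set. Likeness used genes with a mean level of at least 5. The fit was tested on simulated data. The members, gene lists and alternatives were chosen with earlier results of these data known. Named genes were all family members and Cecr2, called genes of the 4 related lists or otherwise the 2 with the smallest p per genotype contrast, the neighbours, and the 4 genes most like Zfhx4 or Zfhx3. Other genes were named after their values were seen. Replicates are separate embryos, and 4 per group limit the precision. Same-numbered embryos of the groups compared correlated at -0.15 to 0.17 in their deviations from the group means. Differently numbered ones correlated at -0.23 to 0.39, highest for BALB/cCrl mutant 4 with wild type 1. Between wild types of the strains, same numbers gave 0.03 to 0.12 and other numbers -0.11 to 0.10. The numbers were not taken as pairs in the main fit, and a fit with them as a block is given below. Coordinates are not given, since no genome build is stated for the deposited values. The order of genes on chromosomes came from RefSeq's annotation of GRCm38.p6, which may not be the build behind the array. Figures were drawn with matplotlib 3.10.9 under Python 3.11.15.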

Additional observations from a re-analysis of the deposited data

How the results depend on the processing

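The Zfhx4 1437556_at genotype differences chose the family, so their alternatives are a description and no support. They were below 0 under every alternative run, at -0.47 to -0.38 in BALB/cCrl and -0.40 to -0.31 in FVB/N with 1 embryo left out. Since all mutants lay below all wild types of their strain, leaving embryos out could not change the sign. Between mutants of the strains, 1437556_at lost its call in a fit to those 8 arrays alone (-0.30, adjusted p = 0.0595), so the family count was 0 there instead of 1. Leaving 1 embryo out gave -0.35 to -0.25 (adjusted p 0.00289 to 0.0332) and a count of 1 to 2. Between wild types it gained a call with array weights (-0.24, adjusted p = 0.0124), with arrays centred on their medians (-0.25, 0.0422), in the fit to those 8 arrays (-0.23, 0.0134), with dim probe sets left out (-0.23, 0.0401) and, chosen after the data were seen, without FVB/N mutants 3 and 4 (-0.23, 0.0293). The family count between wild types was then 2 under each of these, and 0 after quantile normalisation, in the gcRMA table and, also chosen after the data were seen, without BALB/cCrl wild type 1 and mutant 4. With 1 embryo left out it was 0 to 2, at -0.26 to -0.21 for 1437556_at. The wild type call of Zfhx3 1453267_at was lost after quantile normalisation (-0.38, adjusted p = 0.0576), in gcRMA (-0.49, 0.067) and without BALB/cCrl wild type 1 and mutant 4 (-0.41, 0.0873). With the replicate number as a block no call of the family changed (1437556_at between mutants -0.30, adjusted p = 0.0137, between wild types -0.23, adjusted p = 0.072). Over all probe sets this block moved the interaction calls from 34 to 89. The related lists' 2 calls in FVB/N were 4 with the mean of each gene's probe sets and without BALB/cCrl wild type 1 and mutant 4, 0 without FVB/N mutants 3 and 4, and 2 to 5 with 1 embryo left out; in BALB/cCrl the count was 1 throughout. Small differences reversed in sign, none of them called. For mutant minus wild type in BALB/cCrl, Zfhx3 1449947_s_at was 0.012 after quantile normalisation, 0.026 without wild type 1 and mutant 4 and -0.063 to 0.032 with 1 embryo left out. There 1420649_at was -0.014 centred, -0.036 without that pair and -0.028 to 0.049 with 1 left out, and 1460006_at was -0.013 centred, -0.059 without that pair and -0.040 to 0.050 with 1 left out. With 1 left out 1453267_at was -0.075 to 0.089, and Zfhx2 was -0.0064 in gcRMA. In FVB/N, 1449947_s_at was 0.032 without mutants 3 and 4 and -0.13 to 0.017 with 1 left out, and Zfhx2 was 0.13 in gcRMA and -0.070 to 0.037 with 1 left out. The interaction of Zfhx4 1421433_at was 0.0024 with array weights, 0.023 without BALB/cCrl wild type 1 and mutant 4 and -0.12 to 0.051 with 1 left out. That of 1449947_s_at was -0.039 without FVB/N mutants 3 and 4 and -0.025 to 0.13 with 1 left out, and that of 1429725_at was -0.0036 to 0.056. Between mutants of the strains, 1449947_s_at was -0.016 without FVB/N mutants 3 and 4 and -0.0018 to 0.15 with 1 left out, and 1453267_at was 0.034 with array weights and -0.11 to 0.075 with 1 left out. Between wild types, 1449947_s_at was -0.0093 in gcRMA and -0.012 to 0.053 with 1 left out. Over all probe sets, 9 were called in BALB/cCrl, but 50 with array weights, 14 with centred arrays, 3 in gcRMA and 22 without BALB/cCrl wild type 1 and mutant 4. In FVB/N 268 were called, but 162 without the intensity trend, 169 after quantile normalisation, 13 in gcRMA, 455 without BALB/cCrl wild type 1 and mutant 4 and 42 without FVB/N mutants 3 and 4. Of the 4 genes most like Zfhx4 or Zfhx3, Spearman's rho kept 1 to 3. The causes were not tested. The gcRMA tables used hold no pair of mutant groups, so they gave no value there or for the interaction.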
